A study of Mus musculus with 4 samples.

Results

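Spermatogonia, the germ cells of the testis that have not entered meiosis, were picked by a marker gate from single-cell RNA sequencing of dissociated mouse testis. A cell was a member when at least 4 of the 10 genes Gfra1, Zbtb16, Uchl1, Sall4, Sohlh1, Crabp1, Nanos3, Dmrt1, Etv5 and Stra8 had 1 or more unique molecular identifiers (UMIs, each a counted RNA molecule). The 10 genes together also needed at least 5 UMIs per 10,000 UMIs of the cell, and more UMIs than the 4 meiotic genes Prdm9, Meiob, Dmc1 and Sycp1 together. The gate took 110 of 57727 kept cells. The cells came from 4 libraries. Mice fed a high-fat diet gave 2 of them, called HFD 1 and HFD 2, and mice fed a normal diet gave ND 1 and ND 2. The study asks how testis cells differ between the diets. The labels name the diet as the treatment and the tissue as testis, with several cell types in each library. Strain, age, genotype and the length of feeding are not given in the sources used here, and the labels do not say that each library is a separate mouse. A p-value between the diets therefore measures the spread between libraries, which may be technical.

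Spermatogonia sit on the basement membrane of the seminiferous tubule. A few of them are stem cells that renew themselves under GDNF, a factor from Sertoli cells that acts through the receptor made of GFRA1 and RET. Retinoic acid commits the others to differentiation: the receptor tyrosine kinase KIT comes on, the cells divide in clones joined by bridges, and STRA8 prepares them for meiosis. Meiosis then brings in the synaptonemal complex and the recombination proteins, and the sex chromosomes are silenced in pachytene spermatocytes.

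The whole libraries held between 143748262 and 154221188 UMIs in 13561 to 15290 barcodes, and the limits on genes and mitochondrial UMIs removed 13 to 42 barcodes from each. Between 42 and 65 barcodes were shared by any 2 libraries, and 2 of the members' barcodes also occurred in another library. Summed over members, HFD 1 held 214635 UMIs and HFD 2 135268, while ND 1 held 243176 and ND 2 236756. Where 4 values are listed, they follow the order HFD 1, HFD 2, ND 1, ND 2. Levels below are in CPM, which is UMIs of a gene per 1000000 UMIs of the summed cells of 1 library and population.

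Stra8, the gene that retinoic acid induces before meiosis, is the gate gene whose control region is shown here. The window of 250 bases before its RefSeq start (build GRCm38.p6, chromosome 6, plus strand, start at 34920948) was searched on both strands for AGGTCA, the core motif that retinoic acid receptors bind. It held 2 matches, 194 and 38 bases before the start, and 26 bases around each are printed with the motif in capitals. Both stretches lie inside an untranslated exon of a longer Stra8 transcript of GENCODE M21. At least 1 match occurred in 14.02% and at least 2 in 1.34% of 32851 windows of the same length. A match in these letters is a description and not a measured binding site.
Stra8 site 1, chr6:34920744-34920769: tggggtgaaaAGGTCAtcttgctcct
Stra8 site 2, chr6:34920900-34920925: ctggggtaccAGGTCAgttttttacc

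The mean level of the gate genes ranged from 1019 CPM for Uchl1 to 5.44 CPM for Gfra1 and Etv5. The gate genes chose the cells, so their levels are a description and no test was made on them. Uchl1, which encodes a ubiquitin hydrolase used as a stain for spermatogonia, was at 1132, 998, 995 and 950.3 CPM, and 108 of the 110 members had a UMI of it. Stra8 was at 382, 414, 469 and 397 CPM in the same order and was found in 76 members. Crabp1, which encodes a binding protein for retinoic acid, was at 284, 318, 271 and 283 CPM and was found in 85 members. The diets overlapped for Stra8. For Uchl1 and Crabp1 both HFD values lay above both ND values by a very small margin, 998 against 995 CPM and 284 against 283 CPM. Such separation was common among the genes tested between the diets (5509 without the gate genes). Both HFD values lay above both ND values for 1259 genes and below them for 1002.

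Dmrt1, a transcription factor that holds back meiosis, was at 238, 259, 230.3 and 219.6 CPM in 82 members. Sohlh1, a transcription factor of differentiating spermatogonia, was at 172, 199.6, 119 and 109.8 CPM in 69 members. Its HFD libraries lay above its ND libraries, with means of 186 ± 19.2 (SD, n = 2) and 115 ± 6.67 CPM. Sall4, a zinc-finger factor of germline progenitors, was at 97.8, 81.3, 103 and 101 CPM in 61 members. Zbtb16, the repressor also called PLZF that keeps progenitors undifferentiated, was at 79.2, 51.7, 78.1 and 50.7 CPM in 40 members. The diets overlapped for Zbtb16, both HFD values of Sall4 lay below its ND values, and both HFD values of Dmrt1 lay above its ND values by a small margin.

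The stem cell genes of the gate were close to the limit of detection. Gfra1, the GDNF receptor subunit, had 2, 0, 2 and 1 UMIs, in 5 of 110 members (4.55%, exact 95% interval 1.49 to 10.3%). Etv5, a transcription factor that GDNF induces, had the same numbers of UMIs, also in 5 members. Nanos3, an RNA-binding protein of early germ cells, had 4, 4, 4 and 8 UMIs in 18 members. Stray RNA in the droplets was gauged in 1414 Leydig-marker cells, steroid-producing cells that had at least 3 of the 5 genes Star, Cyp11a1, Cyp17a1, Hsd3b1 and Insl3. Their median depth was 5881 to 7054.5 UMIs per library, against 6142 to 7523.5 UMIs in members. Etv5 was found in 12.3% of Leydig-marker cells and 3.49% of meiotic-marker cells, so neither its background nor its expression in members can be read from these shares. Gfra1 was found in 0.212%, Stra8 and Sall4 in none of the 1414, and Zbtb16 in 7.50% of Leydig-marker cells.

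**Figure D1:**
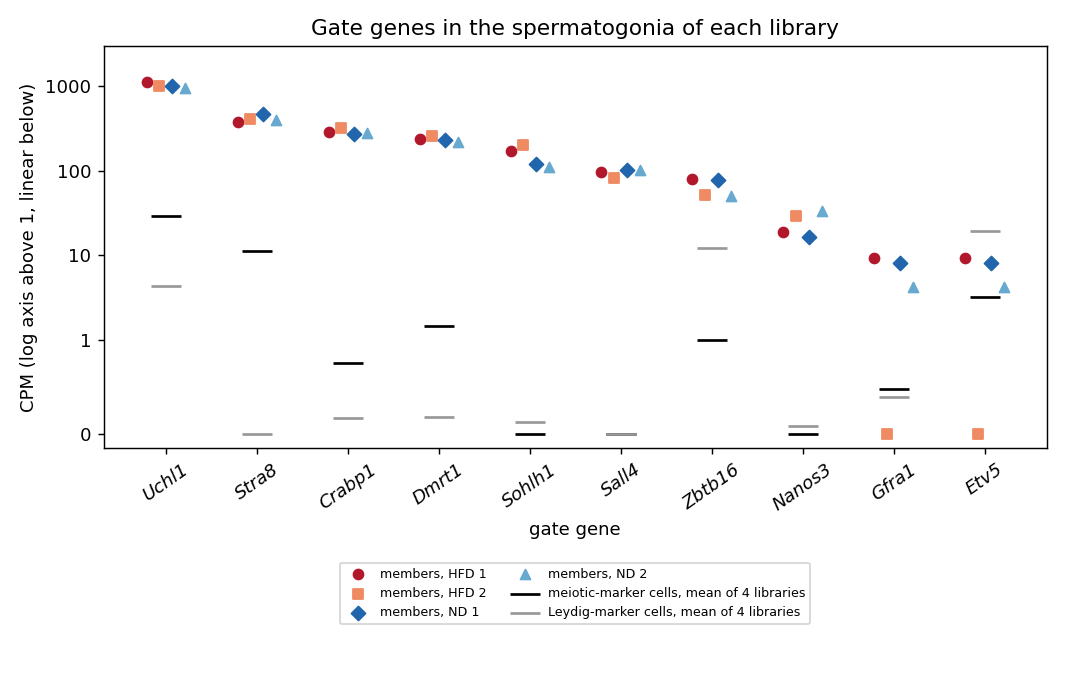
Level of each gate gene in CPM (vertical axis, logarithmic above 1 and linear below) in the summed spermatogonia of the 4 libraries (coloured points), with the means over 4 libraries of meiotic-marker cells (black bars) and Leydig-marker cells (grey bars). Uchl1 was at 950.3 to 1132 CPM, Gfra1 and Etv5 were under 10 CPM, and Etv5 was higher in Leydig-marker cells, at 19.3 CPM.

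The meiotic genes of the gate ranged from 0 UMIs to the level of Dmrt1. Sycp1, a filament protein of the synaptonemal complex, was found in 81 members, at 284, 266, 250.8 and 186 CPM. In Leydig-marker cells it was at 67.2 CPM. Dmc1, the meiotic recombinase, was found in 13 members and Prdm9, which marks recombination sites, in 8. Meiob, a single-strand DNA-binding protein of meiosis, was found in 0 of 110 members. This allows a share of cells with a UMI of up to 2.73% by the limit of 3 counts. Of the meiotic-marker cells described below, 87.8% had it. Those cells were gated on these 4 genes, and the gate of the members limits the same genes. The contrast is thus a description set by the gates and no test.

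The edges of the gate held many cells. Of the members, 42 had 4 gate genes, 40 had 5 and 28 had 6 or more, with a highest number of 9. Just outside were 57 cells with 3 gate genes that met both other conditions, 5 cells that had enough genes but too small a sum, and 3 cells whose sum did not pass that of the meiotic genes. The median sum was 23.9 gate UMIs per 10,000, and 8 members had under 10.

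The label was checked against markers that the gate did not use. Kit, the receptor of differentiating spermatogonia, had 22, 15, 29 and 24 UMIs, which is 108.5 CPM on average. Leydig-marker cells had 121 CPM of Kit, so Kit sets members apart from meiotic cells (2.77 CPM) and not from Leydig cells. Dazl, an RNA-binding protein of germ cells, was at 944 CPM against 19.98 CPM in Leydig-marker cells. Of the stem cell genes in a list of 32 genes for undifferentiated spermatogonia, Pax7 and Eomes had 0 UMIs in members, Nanos2 had 1 and Ret had 6. Id4, a repressor of differentiation highest in stem cells, was at 35.8 ± 10.7 CPM (SD, n = 4 libraries), lower than the 134 ± 10.6 CPM of meiotic-marker cells. 

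Markers of other cell types were summed over each list as a further check. The Leydig list of 9 genes was at 154 to 189 CPM in members and at 15377 to 19204 CPM in Leydig-marker cells. The macrophage list of 10 genes was at 0 to 214 CPM, with ND 1 the highest. The lists for lymphocytes, endothelium and fibroblasts or peritubular cells reached at most 20.6, 55.9 and 13.98 CPM. The endothelial list, at 20.6 to 55.9 CPM in members, was above its 5.10 to 8.08 CPM in Leydig-marker cells and 1.91 to 10.4 CPM in meiotic-marker cells. Sertoli cells, the supporting cells that touch every germ cell, gave a list of 17 genes that was at 690, 207, 493 and 2103 CPM. Of its genes, Amh had 0 UMIs, and Sox9 had 2, 0, 4 and 3 UMIs. Of the members, 15 had at least 3 Sertoli genes, and 5 had at least 12 of them, with 65 to 253 Sertoli UMIs each. Those 5 were 1 cell in HFD 1, 1 in ND 1 and 3 in ND 2.

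Round spermatid markers were concentrated in a few members. The round spermatid list of 10 genes gave 124 and 70 UMIs in 2 members of ND 1 and 46 and 32 UMIs in 2 members of ND 2, and at most 11 UMIs in every other member. Scrublet, which scores barcodes by their likeness to simulated mixtures of cells, called 3 members doublets, and all 3 were among these 4. It called 3.11 to 5.94% of all kept cells. The elongating spermatid list had a median of 47 UMIs per member, and these 4 cells had 184 to 1093. Another member, in HFD 1, had 476, and every other member had at most 150. Over all members the round spermatid list was at 377 and 488 CPM in HFD and at 1139 and 722 CPM in ND. Without the 4 cells and without members that had at least 3 Sertoli genes, 93 members remained, the round spermatid list was at 399 to 466 CPM and the Sertoli list at 111 to 166 CPM.

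**Figure D2:**
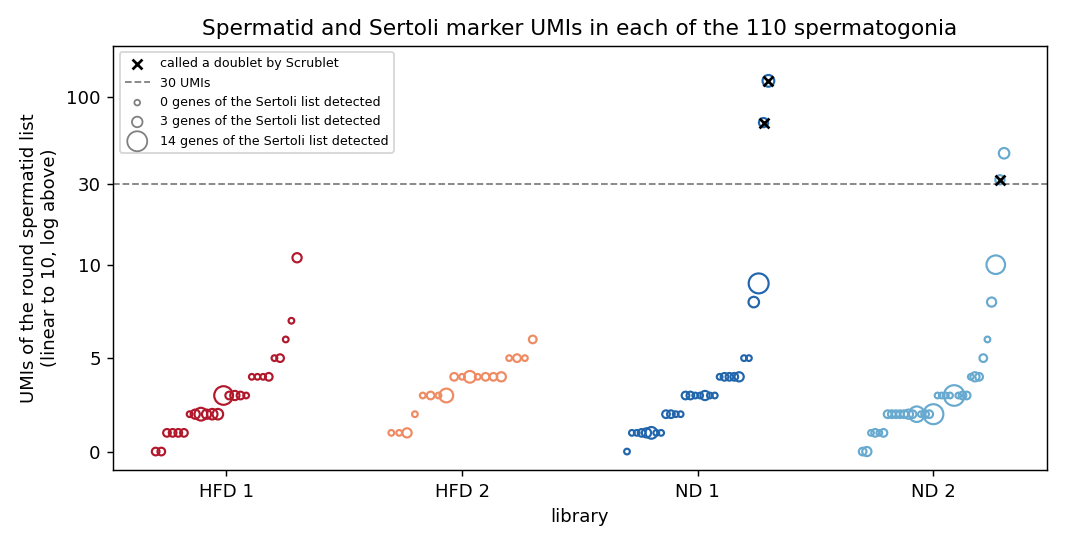
UMIs of the round spermatid list (vertical axis, linear to 10 and logarithmic above) in each of the 110 members, by library, with the size of each circle showing how many Sertoli genes were detected and crosses marking doublet calls. The 4 cells above the dashed line at 30 UMIs are all from ND libraries, and the other 106 members have at most 11.

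The share of spermatogonia did not differ between the diets beyond what 2 libraries each can show. Of the kept cells, HFD 1 had 26 members among 13543 (0.192%, exact 95% interval 0.125 to 0.281%) and HFD 2 had 19 among 14355 (0.132%, 0.0797 to 0.207%). ND 1 had 30 among 15248 (0.197%, 0.133 to 0.281%) and ND 2 had 35 among 14581 (0.240%, 0.167 to 0.334%). HFD 2 was the lowest library, and both HFD libraries lay below both ND libraries, but HFD 1 and ND 1 were within each other's intervals. The means were 0.162% ± 0.0422 (SD, n = 2) in HFD and 0.218% ± 0.0306 in ND. The two-sided exact permutation test gave p = 0.33, the smallest that 2 against 2 libraries allow. The intervals cover counting error only.

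Members of the diets were alike in depth. The median member had 7523.5, 6142, 6598.5 and 6576 UMIs, and the means were 6833 ± 977 in HFD and 6587 ± 15.9 in ND (exact permutation p = 1). The median mitochondrial share of a member was 1.99, 2.06, 1.995 and 2.29%, against 0.359 to 0.435% over all kept cells. The diets overlapped in the UMIs and in the mitochondrial share.

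Members were also split by whether Stra8 was detected. A UMI of Stra8 was present in 76 members and absent in 34, with median depths of 6783.5 and 6612.5 UMIs, and the groups were compared as a description with no test, since Stra8 is a gate gene. The undifferentiated list, which holds no gate gene, summed to 677 to 1058 CPM across libraries in members with Stra8. In those without it summed to 1294 to 2014 CPM, so the ranges did not overlap. A member without Stra8 had to show at least 4 of the other gate genes. The groups thus passed the gate on different genes, and the part of this was not tested. Markers of other cells differed between the same groups, and their part was not tested. The Sertoli list was at 242 CPM with and 1614 without Stra8 in HFD 1, and at 2782 with and 193 without in ND 2. The elongating spermatid list was at 9194 with and 23182 without in ND 2. In ND 1 the round spermatid list was at 833 with and 1623 without, and the macrophage list at 20.1 with and 519.8 without. Upp1, uridine phosphorylase, had 0, 0, 4 and 2 UMIs in members with Stra8 and 3, 7, 4 and 6 UMIs in the fewer members without it. Sdc4, a heparan sulfate proteoglycan of the cell surface, was at 166, 61.5, 168 and 177 CPM with Stra8 and at 199.97, 333, 339 and 612 CPM without. Egr4, a zinc-finger transcription factor, was at 24.6 to 34.3 CPM with Stra8 and at 71.4 to 226 CPM without.

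Other genes went the opposite way in the same comparison. Sohlh2, the partner of SOHLH1, had 26 UMIs in the 76 members with Stra8 and 4 in the 34 without. These counts are not scaled for the different numbers of members. Scml2, a Polycomb-group protein of the germline, was at 201 to 269.7 CPM with Stra8 and at 80.5 to 149 CPM without. Kit differed less, at 119 CPM with and 86.7 CPM without Stra8 as means over libraries. These genes were picked from the lists after their values were seen.

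Only 1 member, in HFD 1, had Gfra1 without Stra8, and 4 members had both, so the Gfra1 side could not be compared with the Stra8 side. The share of members with Stra8 and no Gfra1 was 65.4, 63.2, 56.7 and 74.3%. Thinned to 5000 UMIs per member, it was 56.5, 57.1, 52.0 and 61.5%, with 3, 5, 5 and 9 shallower members left out. Both HFD libraries lay between the ND libraries, and the exact permutation p was 1 for either measure.

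What sets spermatogonia apart was asked against cells gated on meiotic genes. These were 229 meiotic-marker cells (45, 56, 71 and 57), which had at least 3 of Prdm9, Meiob, Dmc1 and Sycp1 and more UMIs of these than of the spermatogonia genes. Counts were summed per library and population and tested with edgeR's quasi-likelihood test with library as a term and Benjamini-Hochberg adjustment. Of 8224 genes tested, 2214 (26.9%) were higher and 1748 (21.3%) lower in spermatogonia at an adjusted p under 0.05. The 14 genes of the gates took no part in these counts. Both populations were gated on stage genes, and genes that go with the stage had to differ. The counts below therefore describe the stages and do not test them. The shares over all genes tested, 26.9% higher and 21.3% lower, are the background for the list counts below. Genes named below beyond the largest changes and the most abundant members of each list were picked after their values were seen.

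Among the 10 genes named for the largest positive change, 5 had no UMI in meiotic-marker cells. Pou3f1 (chromosome 4, 124656807 to 124660655, plus strand), a POU-domain factor, was at 154, 126, 103 and 118 CPM and had 0 UMIs in meiotic-marker cells, so it was at least 99.5-fold higher. Trim71 (chromosome 9, 114507133 to 114564369, minus strand), an RNA-binding ubiquitin ligase of stem cells, was at least 85.0-fold higher, with 88 UMIs against 0. Ascl2, a basic helix-loop-helix factor, Nefh, a neurofilament subunit, and Patz1, a zinc-finger factor, were at least 47.3-fold, 46.4-fold and 44.4-fold higher. These bounds set the 0 in the summed meiotic-marker cells to 3 counts.

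Further genes had a few UMIs in meiotic-marker cells. Smagp, a small membrane glycoprotein, had 100 UMIs against 1, a ratio of levels of 290 (95% counting interval 50.8 to 11559). Ccdc85b had 96 UMIs against 2, a ratio of 139 (37.5 to 1165). P3h3, a collagen prolyl hydroxylase, was at 209.7, 259, 279.6 and 88.7 CPM against 4.16, 5.72, 0 and 0 CPM, a log2 change of 6.42 with a standard error (SE) of 0.42 (adjusted p = 4.24e-08, edgeR). Bahcc1 and Trnp1 completed the 10, each with 1 UMI in meiotic-marker cells and 52 and 51 UMIs in spermatogonia. All 10 were higher in 4 of 4 libraries.

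The 10 genes named for the largest negative change included neighbours on chromosome 15. Gml (chromosome 15, 74813452 to 74818815, minus strand) had 5 UMIs in spermatogonia and 1385 in meiotic-marker cells and was lower by a log2 change of -6.54 (SE 0.26, adjusted p = 4.41e-10, edgeR). Its neighbours Gml2, at -4.75, and Ly6k, at -4.03, were also among the 10 lowest. The 3 genes are related in sequence, and reads could have been split among them. Hormad1, a protein of the unsynapsed chromosome axis, was at 42.8 ± 6.93 CPM in spermatogonia and 654 ± 68.4 CPM in meiotic-marker cells (SD, n = 4 libraries). The testis histone gene Hist1h2ba had 2 UMIs against 242, and 4 further transcripts, Gm49794, 4930463O16Rik, Gm10505 and 4930426I24Rik, are annotated as noncoding.

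Genes of undifferentiated spermatogonia were higher as a group. Of the 32 genes in the list 12 were tested, 11 were higher and 1 was lower, with a median log2 change of 3.37 beside 0.08 over all genes tested. Sdc4 was at 177, 170.0, 234 and 291 CPM against 13.3 to 22.7 CPM in meiotic-marker cells, a log2 change of 3.61 (SE 0.24). Foxo1, a transcription factor of stem cell maintenance, was at 126, 126, 119 and 80.3 CPM against 10.8 to 13.6 CPM. Epcam, an adhesion protein of the cell surface, was at 247, 96.1, 115 and 160.5 CPM against 47.4 to 64.5 CPM, with HFD 1 the highest. Sox3, an X-linked factor of progenitors, had 70 UMIs against 2, a ratio of 101 (27.05 to 854). Lin28a, an RNA-binding protein that blocks let-7 microRNAs, was at least 37.7-fold higher, and Upp1 at least 25.1-fold. Id4 was the gene that fell, with a log2 change of -1.92 (SE 0.25, adjusted p = 2.22e-05).

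Most tested genes of differentiating spermatogonia were higher. Of 18 genes 16 were tested, and 11 were higher and 3 lower, with a median log2 change of 2.84. Kit was at 102, 111, 119 and 101 CPM against 1.91 to 4.06 CPM, a log2 change of 5.07 (SE 0.37, adjusted p = 1.12e-07). Ccnd1, a cyclin of the G1 phase, was at 233, 192, 136 and 199 CPM against 0 to 12.1 CPM. Ccnd2, another G1 cyclin that appears as spermatogonia differentiate, had 98 UMIs against 3, a ratio of 94.7 (31.5 to 467). Sox4 had a log2 change of 6.35 (SE 0.44), and Lmo1, a LIM-domain transcription cofactor, one of 5.63 (SE 0.45). Dnmt3b, which lays down DNA methylation de novo, was at 79.2 to 131 CPM against 2.71 to 4.16 CPM. The 3 genes that were lower, Tex101 at -3.90, Ly6k at -4.03 and Prss50 at -2.83, are surface proteins and a protease that meiotic cells also make.

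More tested genes of the retinoic acid path were higher than lower. Of 28 genes 13 were tested, with 7 higher and 4 lower and a median of 1.01. Among the receptors, Rxrb rose by 1.01 (SE 0.24) and Rxra by 3.23 (SE 0.67) on the log2 scale. Of the carriers, Rbp4, which carries retinol in blood, rose by 1.30 (SE 0.34). The corepressor Ncor1 did not pass, at 0.33 (SE 0.16). The enzymes Rdh11 and Aldh1a2, which make retinaldehyde and retinoic acid, fell by 0.83 and 0.82. Meioc, which keeps meiotic prophase going, fell by 2.46.

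Receptors for signals from the niche were higher. Of 25 genes 9 were tested and 8 were higher, with none lower and a median of 1.78. Igf1r, the receptor for insulin-like growth factor, was at 112, 96.1, 119 and 122 CPM against 2.08 to 12.1 CPM. Itgb1, an integrin that holds cells to the basement membrane, was at 121, 73.9, 119 and 131 CPM against 30.2 to 33.9 CPM. Acvr2b, a receptor for activins, rose by 2.93 (SE 0.39) on the log2 scale. Fgfr1, a receptor for fibroblast growth factors, had 22 UMIs against 1, a ratio of 63.8 (10.3 to 2631). The gene that did not pass was Bmpr2, at 0.97 (SE 0.49, adjusted p = 0.117, edgeR).

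Most genes of the early meiotic list were lower, as the gates set it. Of 34 genes 30 were tested, with 21 lower and 4 higher and a median of -1.32. Sycp3, a structural protein of the chromosome axis, was at 289, 296, 300.2 and 241 CPM against 1864 to 2012 CPM, a log2 change of -2.82 (SE 0.11). Sycp2, its partner, fell by 2.94 (SE 0.15). The 4 genes that were higher were Tex15 at 1.58, Tex11 at 2.75, Rec114 at 3.14 and Rec8 at 1.72. Tex15 silences transposons in germ cells, Tex11 is an X-linked gene needed for crossovers, Rec114 serves the formation of DNA breaks, and Rec8 is a meiotic cohesin. Tex15 was at 499, 569, 456 and 511 CPM in spermatogonia against 107 to 243 CPM.

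Cell cycle genes were higher on the whole. Of 40 genes 37 were tested, and 24 were higher and 7 lower, with a median of 1.09. Cenpf, a kinetochore protein of dividing cells, was at 909, 1028, 995 and 912 CPM against 383 to 535 CPM. Hells, a chromatin remodeller, was at 550, 606, 424 and 532 CPM against 89.5 to 147 CPM. Mki67, a stain for dividing cells, was at 219, 347, 284 and 304 CPM against 78.1 to 119 CPM. Mcm2, a subunit of the replicative helicase, rose by 5.36 (SE 0.35) and Cenpa, the centromeric histone, by 5.73 (SE 0.37). The 7 that fell included Cdk1, by 1.41, Cdc20, by 1.01, and Top2a, by 0.48.

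Germ cell identity and chromatin genes divided between the populations. In the identity list 19 of 22 genes were tested, with 8 higher and 11 lower. Dazl was at 909, 976, 942 and 950.3 CPM against 1236 to 1423 CPM, and Ddx4, the helicase also called VASA, fell by 1.07 (SE 0.15). Nanos1 had 46 UMIs against 1, a ratio of 133 (22.8 to 5378), and Rhox10, an X-linked homeobox gene, was at least 26.1-fold higher. Of 26 chromatin genes 22 were tested, with 11 higher and 7 lower. Dnmt1, the maintenance DNA methyltransferase, was at 284, 259, 173 and 207 CPM against 24.4 to 37.8 CPM, and Tet3, which oxidises methylcytosine, rose by 5.11 (SE 0.43). Brdt, a testis bromodomain protein, fell by 2.36 (SE 0.16) and Ezh2, the Polycomb methyltransferase, by 1.12 (SE 0.19).

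Most tested genes for sterol synthesis and antioxidant defence were higher in spermatogonia, and more lipid genes were higher than lower. Of 22 cholesterol genes 18 were tested, with 13 higher and 1 lower and a median of 1.89. Fdft1, squalene synthase, was at 112, 148, 197 and 199 CPM against 76.2 to 98.9 CPM, and Srebf2, the master regulator of the path, rose by 2.49 (SE 0.33). Insig2, which retains that regulator in the endoplasmic reticulum, was the gene that fell, by 1.30 (SE 0.23). Of 33 lipid genes 17 were tested, with 9 higher and 3 lower, and Acly, ATP citrate lyase, was at 140, 118, 164 and 156 CPM against 7.62 to 24.2 CPM. Of 24 antioxidant genes 19 were tested, with 13 higher and none lower and a median of 1.11. Gsr, glutathione reductase, rose by 5.28 (SE 0.35), Nfe2l2, the NRF2 factor, by 4.41 (SE 0.54), and Hmox1, heme oxygenase, was at least 35.7-fold higher.

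More tested glycolysis genes were higher than lower, and most tested genes of the unfolded protein response were lower. The 22 names of the glycolysis list covered 23 entries with UMIs in meiotic-marker cells. Of the list 16 were tested, with 8 higher and 3 lower, beside 26.9% higher and 21.3% lower over all genes tested. Gapdh was at 457, 599, 415 and 503 CPM against 30.5 to 86.2 CPM, and Pgam1, phosphoglycerate mutase, at 256, 229, 230.3 and 228 CPM against 23.0 to 31.8 CPM. Ldha fell by 0.61 (SE 0.12) and Slc2a3, a glucose transporter, by 0.80 (SE 0.14). Of 20 genes of the unfolded protein response 15 were tested, with 10 lower and 2 higher and a median of -0.82. Calr, a calcium-binding chaperone, was at 447, 488, 370.1 and 545 CPM against 1649 to 2022 CPM, and Hspa5, the chaperone BiP, at 303, 540, 296 and 321 CPM against 1228 to 1671 CPM. Of 22 apoptosis genes 11 were tested, with 6 higher and 3 lower. Bax was among the higher, at 2.23 (SE 0.19), and Diablo among the lower, at -1.82 (SE 0.12).

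**Figure D3:**
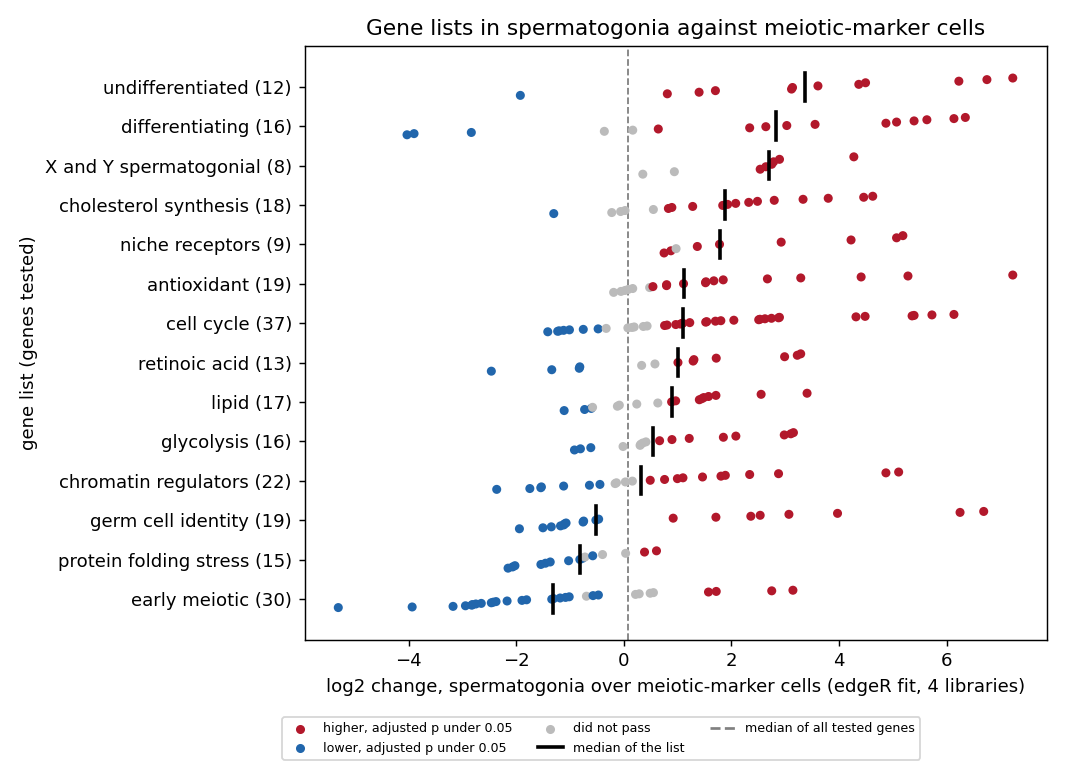
Log2 change of each tested gene in spermatogonia over meiotic-marker cells (horizontal axis), by gene list with the number tested in brackets, coloured by the edgeR call at an adjusted p under 0.05; black bars are list medians and the dashed line is the median of all tested genes, 0.08. Of the 14 lists drawn, the undifferentiated list has the highest median, 3.37, and the early meiotic list the lowest, -1.32.

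Markers of other cells were also set against the meiotic-marker cells, and their part in the gene counts was not tested. The Sertoli list was at 207 to 2103 CPM in members and 412 to 712 CPM in meiotic-marker cells, and 1 of its 7 tested genes, Cst12, was higher. The list for elongating spermatids was at 6099 to 12861 CPM in members and 8676 to 25269 CPM in meiotic-marker cells, with 4 of 12 genes lower. The pachytene list was at 4105 to 4887 CPM in members and 7276 to 8012 CPM in meiotic-marker cells, with 6 of 12 genes lower. In the round spermatid list 1 of 9 tested genes, Spata18, was lower. Both tested genes of the Leydig list, Fdx1 and Insl3, were lower, and the 1 tested gene of the endothelial list, Egfl7, was higher by 2.68. The 2 tested macrophage genes did not pass, and no fibroblast or lymphocyte gene was tested. In Leydig-marker cells, which are not germ cells, the elongating spermatid list was at 8197 to 10176 CPM. Without members that carried spermatid or Sertoli markers, 4517 genes differed between the populations, 2316 of them higher.

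The X chromosome gave a clear difference in level. X-linked genes took 1.71, 1.52, 1.68 and 1.72% of the UMIs of members, a mean of 1.66% ± 0.09 (SD, n = 4 libraries). In meiotic-marker cells they took 0.43 to 0.56%, and in Leydig-marker cells 1.99 to 2.09%. No member value came near the meiotic-marker range. A list of 14 germ cell genes, 12 on the X and 2 on the Y chromosome, had 8 tested and 6 higher, with none lower and a median of 2.70. Usp26, a ubiquitin protease, was at 266, 318, 247 and 186 CPM against 24.8 to 48.8 CPM, and Taf7l, a subunit of a germ cell transcription complex, at 331, 303, 209.7 and 245 CPM against 27.2 to 65.0 CPM. Mageb4, at 101 to 115 CPM against 2.08 to 10.8 CPM, belongs to a family of near-identical copies, so its reads are uncertain. Nxf2, an RNA export factor, rose by 2.79 (SE 0.27). Tex16, at 0.35 (SE 0.40), and the Y-linked Usp9y, at 0.94 (SE 0.51), did not pass.

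Ribosomal protein genes took more of the RNA of spermatogonia than of any population they were compared with. Their 89 genes held 10.2, 9.38, 8.97 and 8.85% of UMIs in members, against 5.58 to 6.27% in meiotic-marker cells and 3.97 to 4.08% in all other cells. The mitochondrial share of the summed UMIs was 1.92 to 2.40% in members and 1.70 to 2.52% in meiotic-marker cells.

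**Figure D4:**
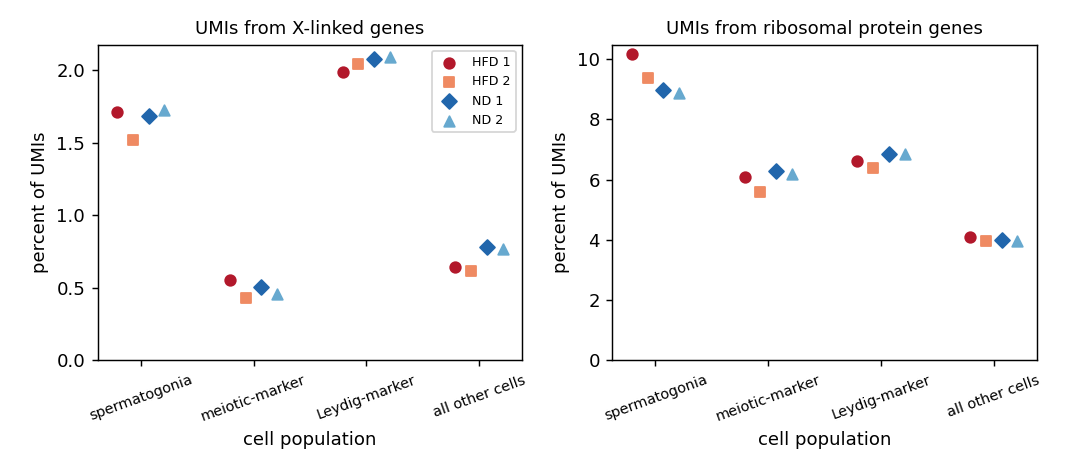
Percent of UMIs from X-linked genes (left) and from ribosomal protein genes (right) in the summed cells of each population, 1 point per library. Spermatogonia lie between 1.52 and 1.72% for the X chromosome, against 0.43 to 0.56% in meiotic-marker cells, and are the highest of the 4 populations for ribosomal protein genes.

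Between the diets, of 5509 genes tested with edgeR's quasi-likelihood test, 21 (0.381%) were lower and 0 (0%) higher in HFD at an adjusted p under 0.05, while at an unadjusted p under 0.05 there were 417 lower and 181 higher. DESeq2 called 12. All 21 genes were at a higher level in the cells outside the gate than in members, and 3 of them, Smcp, Gapdhs and Tssk1, are in the lists for round or elongating spermatids. Hils1 (chromosome 11, 94967593 to 94968456, plus strand), a linker histone of spermatids, had 22, 18, 100 and 89 UMIs, a log2 change of -1.81 (SE 0.23, adjusted p = 0.00818). Ropn1, a sperm tail protein, had 16, 4, 70 and 48 UMIs, a change of -2.15 (SE 0.36, adjusted p = 0.0315, edgeR). Tssk1, a testis serine kinase, had 10, 3, 47 and 38 UMIs, a change of -2.28 (SE 0.37). The ND libraries were the high ones for all of these.

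The 7 further genes named by size were lower in both HFD libraries than in both ND libraries. 1700001P01Rik had 1, 1, 44 and 18 UMIs, a log2 change of -4.40 (SE 0.73), and 4930558C23Rik had 2, 0, 39 and 18, a change of -4.28 (SE 0.74). Spaca3, a protein of the sperm acrosome, had 6, 5, 51 and 30 UMIs, a change of -2.44 (SE 0.42). Tex33, Fam209, Actrt2 and Kif2b, which are testis genes, had changes of -2.79, -2.70, -2.57 and -2.26. ND 1 held the most UMIs of each of these 7 genes.

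The fit was repeated without the 4 members with 30 or more round spermatid UMIs. They were chosen after seeing the data, all are from ND, and the list that chose them holds Tssk1, so leaving them out lowers the ND level of spermatid genes by construction and does not show what the diets do. They were 6.15% of the ND members and held 16.5% of their UMIs, but 55.1% of the ND UMIs of the 21 genes, between 30.5 and 80.7% of each gene. Without these 4 cells, 0 of 4959 genes passed, with 239 at an unadjusted p under 0.05 and 0 called by DESeq2. The median change of the 21 genes was -1.77 with them, and -0.54 without them over the 18 genes still tested, of which 9 had an unadjusted p under 0.05. The log2 change of Hils1 was -1.81 with them and -0.63 without them (SE 0.30, adjusted p = 0.945, edgeR). Without the 3 doublet calls 0 genes passed as well. Leaving out the HFD 1 member with 476 elongating spermatid UMIs as well also gave 0 calls, with a median change of -0.57. With 1 library left out, so that 1 diet has a single library assumed to vary like the other, 0 genes passed without HFD 1, without HFD 2 or without ND 1, and 171 passed without ND 2. Both HFD libraries lay below both ND libraries for all 21 genes, so leaving out 1 library could hardly reverse their direction. Their median change was -1.57 to -1.93 in these 4 fits, beside -1.77 with all libraries. Without members that had at least 3 Sertoli genes, 22 genes passed, 20 of them lower, and these included 8 of the 21. That limit also left out the ND 1 member with 124 and the ND 2 member with 46 round spermatid UMIs.

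**Figure D5:**
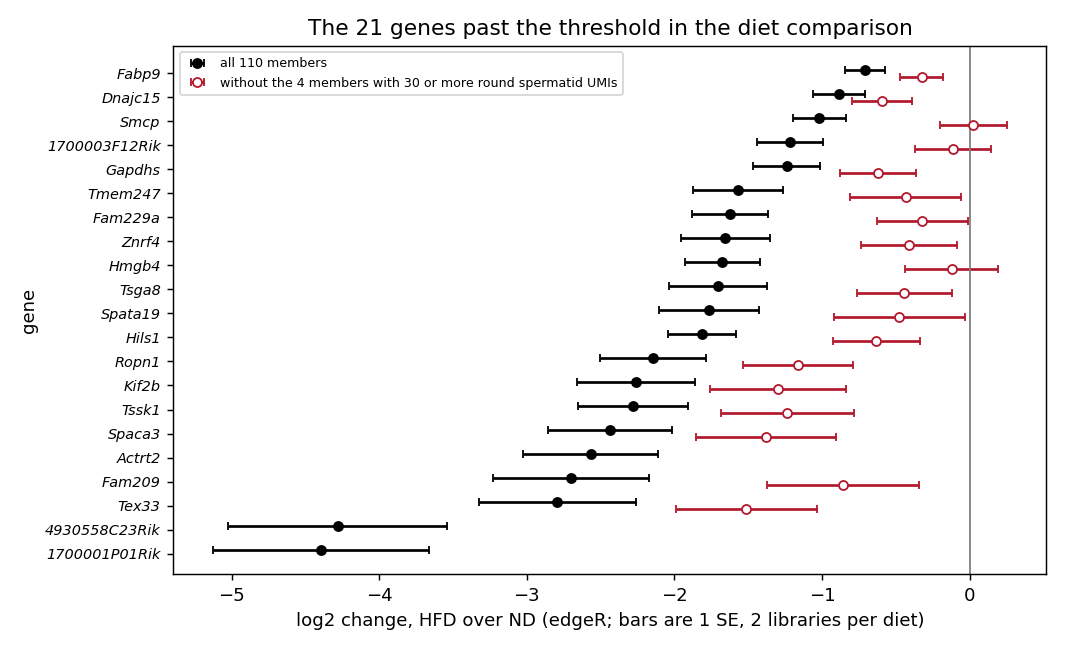
Log2 change between the diets, HFD over ND, of the 21 genes past the threshold, with 1 SE from edgeR, for all members (black) and without the 4 members with 30 or more round spermatid UMIs (open red; 3 genes were then too low to be tested). Without the 4 cells the changes lie between -1.51 and 0.03, and none passed the threshold.

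Marker lists of other cells are given here by diet, and their part in the calls was not tested beyond leaving out members with spermatid or Sertoli markers. The elongating spermatid list was at 8000 and 6099 CPM in HFD and at 8788 and 12861 CPM in ND, and 11 of its 12 genes were lower at an unadjusted p under 0.05. With 93 members it was at 8410 and 5930 CPM in HFD and at 7005 and 8210 CPM in ND. The Sertoli list was at 690 and 207 CPM in HFD and at 493 and 2103 CPM in ND. Of its 17 genes 5 were tested, 4 had an unadjusted p under 0.05 in the lower direction and 0 passed. Clu, a secreted chaperone that Sertoli cells make in quantity, had 21, 4, 20 and 95 UMIs, a change of -1.80 (SE 0.61, adjusted p = 0.222, edgeR). ND 2 alone was high for Clu. The macrophage list was at 9.32 and 0 CPM in HFD and at 214 and 21.1 CPM in ND, with ND 1 alone high. With 93 members it was at 5.54 and 0 CPM in HFD and at 25.0 and 5.66 CPM in ND. The endothelial list was higher in both HFD libraries, at 55.9 and 44.4 CPM against 20.6 and 25.3 CPM, and with 93 members it was at 66.5 and 47.4 CPM against 25.0 and 28.3 CPM. No gene of these 2 lists had enough counts to be tested. Ribosomal protein genes took 10.2 and 9.38% of UMIs in HFD and 8.97 and 8.85% in ND.

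The lists of spermatogonial genes held no gene that passed between the diets, in either direction. Of all genes tested 0.381% passed, so a count of 0 in lists of this size is near the background and is no result about them. The median over all genes tested was 0.00. In the undifferentiated list 10 genes were tested, with a median of -0.10. Sdc4 had 38, 23, 57 and 69 UMIs, a log2 change of -0.63 (SE 0.23, adjusted p = 0.273, edgeR). In the differentiating list 15 genes were tested, with a median of 0.31. Kit, at 107 ± 5.93 CPM in HFD and 110.3 ± 12.6 CPM in ND (SD, n = 2), had a change of -0.10 (SE 0.30). The 6 tested genes of the list on the X and Y chromosomes had a median of 0.41, and 3 were higher at an unadjusted p under 0.05. Nxf2 had 37, 28, 22 and 28 UMIs (0.80, SE 0.28, adjusted p = 0.237, edgeR). Tex11 had 24, 19, 19 and 9 UMIs (1.04, SE 0.38, adjusted p = 0.278, edgeR).

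Cell cycle, retinoic acid and metabolic genes were similar in that none passed. Of 34 cell cycle genes tested, the median was 0.11. Mcm7, a subunit of the replicative helicase, had a change of 0.67 at an adjusted p of 0.234 (edgeR). Of 9 retinoic acid genes tested, Rbp4 had 17, 18, 11 and 12 UMIs, a change of 1.03 (SE 0.40, adjusted p = 0.309, edgeR), and the median was -0.23. Of 15 cholesterol genes tested the median was -0.37, and 12 changes were negative, beside 2742 of 5509 over all genes tested. Fdft1 had 24, 20, 48 and 47 UMIs (-0.68, SE 0.26, adjusted p = 0.312, edgeR), with both HFD libraries below both ND libraries. The same held for 1002 genes over all genes tested. Of 12 lipid genes tested the median was -0.15, and Acsl3, which activates fatty acids, had 30, 21, 21 and 19 UMIs (0.77, SE 0.30, adjusted p = 0.309, edgeR). Of 17 antioxidant genes the median was 0.07, and Prdx1, a peroxidase, was at 897 ± 3.31 CPM in HFD and 812 ± 31.8 CPM in ND (SD, n = 2).

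No gene passed in the higher direction with all members, the filter on low counts and no further term. Without members that had at least 3 Sertoli genes, Loxl2 (adjusted p = 0.0415) and Gm10076 (adjusted p = 0.0267, edgeR) passed as higher, and both also passed without a filter on low counts, at 0.00606 and 0.0336. The 5 with the smallest p among those whose diets did not overlap are given as values. Herc1, a large ubiquitin ligase, had 65, 44, 38 and 41 UMIs, which is 314 ± 15.9 CPM in HFD and 165 ± 11.96 CPM in ND (log2 change 0.88, SE 0.22, adjusted p = 0.0754, edgeR). Loxl2, a lysyl oxidase, had 12, 18, 3 and 5 UMIs (2.30, SE 0.57, adjusted p = 0.0806, edgeR). Atp5k, a subunit of ATP synthase, and Lsm1, a factor of mRNA decay, had changes of 0.69 and 0.93, and the noncoding Gm10076 one of 0.86. Without the 4 cells the changes of Herc1, Loxl2, Atp5k and Lsm1 were 0.71, 2.07, 0.62 and 0.75.

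Whether the change between the diets differed between spermatogonia and meiotic-marker cells was tested as an interaction of diet and population in 1 edgeR fit of the 8 sums. The fit had no library term, so the 2 sums of each library were treated as independent. Of 8224 genes 51 (0.62%) passed, 50 (0.608%) with a more negative change in spermatogonia and 1 (0.0122%) with a more positive one. In meiotic-marker cells alone 0 of 7740 genes passed between the diets, with 487 at an unadjusted p under 0.05. Hils1 had a change of 0.70 (SE 0.26, adjusted p = 0.725, edgeR) there, and its interaction was -2.47 (SE 0.40, adjusted p = 0.0149, edgeR). Without the 4 cells 0 interactions passed, with 413 at an unadjusted p under 0.05, and that of Hils1 was -1.34 (adjusted p = 0.938, edgeR). HFD 1 stood apart among the meiotic-marker cells in spermatid markers, with 25269 CPM of the elongating list against 8676 to 12795 in the other libraries and 919.9 CPM of the round list against 562 to 576. Interactions numbered 0 without HFD 1 and without ND 1, 144 without HFD 2 and 68 without ND 2. For 9 of the genes named above that passed, the median interaction was -2.98 with all libraries. It was -2.80 without HFD 1 and -2.72 without ND 1. These 9 were chosen by their calls in the same libraries, so the medians are no separate test.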

How the data were processed

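Single-cell libraries were made from mouse testis with a 3′ droplet kit, and the values used are the UMI counts per gene and cell barcode that the authors deposited. The matrix headers give software version 3.0.2 without a name, and the submitters' processing notes name the build mm10. The aligner and its settings are not given in the sources used here. A barcode was dropped when it had fewer than 200 genes or when over 20% of its UMIs were mitochondrial. Doublets were scored with Scrublet in scanpy 1.11.5 and kept in the main analysis.

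Members, meiotic-marker cells and Leydig-marker cells (whose 5 genes had to sum to at least 20 UMIs per 10,000) were gated as the text describes. Raw counts were summed per library and population. The sums were tested with edgeR 4.0.16 (R 4.3.3; filterByExpr, TMM scaling, quasi-likelihood F test, Benjamini-Hochberg adjustment, threshold 0.05), and DESeq2 1.42.0 was an alternative. The SE of a log2 change was taken as its size divided by the square root of F. Values per library were compared with exact permutation tests, which cannot go below p = 0.33 with 2 against 2. The model was tested on simulated counts.

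The members and gene lists were chosen with earlier results of these data known. Genes named are the 10 with the largest change in each direction among those past the threshold, in the same direction in every library and above 20 CPM (diet) or 50 CPM (populations), and the most abundant genes of each list, up to 6 for populations and 4 for diet. Other genes named were picked after their values were seen. Replicate numbers were not used to pair libraries in the main fits. A fit of members with Gfra1 against members with Stra8 could not be made, since 1 member had Gfra1 without Stra8. Some results for single genes are not reported here.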

Additional observations from a re-analysis of the deposited data

Results flagged for a closer look

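The change between the diets differed between spermatogonia and meiotic-marker cells, by the interaction term of edgeR's quasi-likelihood fit, for 9 of the genes named above. That fit had no library term and treated the sums of a library as independent. The log2 difference of the changes, spermatogonia minus meiotic-marker cells, was -4.21 for 4930558C23Rik, -4.03 for 1700001P01Rik and -3.95 for Actrt2. It was -3.15 for Tex33, -2.98 for Kif2b, -2.85 for Tssk1, -2.82 for Ropn1, -2.70 for Spaca3 and -2.47 for Hils1. All 9 were lower in the HFD libraries of spermatogonia. Without the 4 ND members that had 30 or more round spermatid UMIs, none of the 9 interactions passed the threshold. All 9 stayed negative, from -2.52 for Actrt2 to -1.34 for Hils1 with a median of -1.93, and 8 had an unadjusted p under 0.05. The 9 were chosen by their calls with all members, so these values are no separate test.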

How the results depend on the processing

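The number of genes called between the diets, 21, was 21 with a mitochondrial limit of 10%, 22 without Sertoli-marker members (8 of the 21 among them), 0 without Scrublet doublets, 0 with at least 5 gate genes, 7 with a gate sum of at least 10 per 10,000 (2 of the 21), 13 with DESeq2 size factors in edgeR (13 of the 21), 196 without a filter on low counts (all 21) and 12 with DESeq2 (11 of the 21). With at least 5 gate genes 16 of the 21 were tested, and all were lower at an unadjusted p under 0.05 (edgeR). Their median log2 change was -1.64, beside -1.77 for the 21 with all members. Of the 3639 genes tested in that setting, 192 had an unadjusted p under 0.05. The 21 were chosen by their calls in the same libraries, so these values are no separate test. The ND 1 members with 70 and 124 round spermatid UMIs had 5 gate genes and stayed in. With the replicate number as a block there were 213 calls, 15 of them higher, among them Herc1, Loxl2, Gm10076, Atp5k and Lsm1 (adjusted p = 0.00179 to 0.0289, edgeR). The deviations of HFD 1 and ND 1 from their diet means had a correlation of -0.02 over genes. This value cannot show whether same-numbered libraries were handled together. Leaving out 1 library gave 0 to 171 calls. Chosen after seeing the data, leaving out members with 30 or more round spermatid UMIs gave 0, and so did leaving out those with 30 or more round or 300 or more elongating spermatid UMIs, and those with spermatid or Sertoli markers. The 51 interactions became 184 without the filter, 0 to 144 without 1 library and 0 without the spermatid-marker members by either limit. The cause was not tested. Counts between the populations ranged from 2777 to 4692 and stayed within 1.5 times 3962. The Stra8 share differed by -1.20 percentage points (HFD minus ND), by 7.5 with at least 5 gate genes, by 2.60 without Sertoli-marker members, by 0.0631 after thinning and by -10.0 to 7.60 without 1 library. The difference in median UMIs of 245.5 went from -445 to 936 without 1 library. The mean share of spermatogonia was lower in HFD under every alternative run, by 0.0191 to 0.0883 percentage points. Both HFD shares lay below both ND shares with all libraries, so leaving out 1 library could not reverse the sign. The diets overlapped without Scrublet doublets (exact permutation p = 0.67). They also overlapped with at least 5 gate genes, where the difference was smallest, at -0.0191.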
